A study of Mus musculus with 6 samples.

Results

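The genes described here are 9 immediate early genes and their regulators: the zinc finger transcription factor genes Egr1, Egr2 and Egr3, the genes of their corepressors, Nab1 and Nab2, the immediate early response genes Ier2, Ier3 and Ier5, and the orphan nuclear receptor gene Nr4a1. They were chosen by name, and the features taken for them are those whose only gene symbol in the platform's annotation is the member's name, which gave 1 feature for each of the 9 genes among 19937 genes so named. Transcripts were measured in 6 samples of C57Bl/6 mouse embryonic stem cells (ESCs), 1 array each. All of them, controls included, carried the chimeric receptor GRgp-Y118F, which carries the outer part of the receptor for granulocyte colony-stimulating factor (GCSF) on the inner part of gp130, with the tyrosine replaced through which gp130 recruits the phosphatase SHP2 and so activates ERK. There were 2 control arrays of untreated cells, 2 arrays labelled GCSF, from cells given GCSF for 1 h, and 2 arrays labelled LIF/PD, from cells given leukaemia inhibitory factor (LIF) with 1 uM PD0325901, an inhibitor of the ERK-activating kinase MEK, for 1 h. The treated cells had first been kept for 6 h without serum. The sources used here do not say whether the control cells had been kept without serum too, or whether the line is 1 clone. The study looked for genes downstream of the transcription factor STAT3.

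Immediate early genes are transcribed within minutes of a growth factor or serum signal, without new protein being made first. Active ERK phosphorylates ternary complex factors, which sit with serum response factor (SRF) on serum response elements of genes such as Egr1, so that the Egr1 transcript follows ERK activity closely. EGR proteins bind GC-rich sites, and NAB1 and NAB2 bind EGR proteins and repress their activity, NAB2 in a feedback loop. In ESCs, ERK activity driven by fibroblast growth factor favours exit from self-renewal, and MEK inhibitors are used to hold it down.

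Transcripts that report ERK activity went against the label of the inhibitor. Dusp6, which encodes an ERK phosphatase that ERK itself induces, had log2 intensities of 10.47 and 10.52 in the controls and 10.51 and 10.54 in the LIF/PD arrays, whereas both GCSF arrays were low, at 8.93 and 8.94. Spry4, another ERK-induced inhibitor of the pathway, had 9.97 and 10.04 in the controls, 10.12 and 9.98 in the LIF/PD arrays and 8.12 and 8.22 in the GCSF arrays. Both were thus low in the arrays labelled GCSF and not in those whose label names a MEK inhibitor. The sources used here do not settle whether the GCSF and LIF/PD labels were exchanged between these 4 arrays, and this was not tested. If they were, each value given for one of these groups would belong to the other, so every direction below is that of the arrays that carry the label, also where only GCSF or LIF/PD is written. Socs3, the feedback inhibitor induced by STAT3, was high under both labels on its brighter feature, at 7.77 and 7.73 in the controls, 10.79 and 10.98 in the GCSF arrays and 10.42 and 10.32 in the LIF/PD arrays. All 8 ESC markers lay above the filter on low values, a mean log2 intensity of 6.70, and so did all 7 fibroblast markers, 4 of 6 primitive endoderm, 4 of 5 trophoblast and 4 of 4 neuroectoderm markers and 1 of the 3 mesoderm markers matched. The mean log2 intensity of the ESC list lay between 11.57 and 11.61 in the controls, 11.75 and 11.77 in the GCSF arrays and 11.65 and 11.67 in the LIF/PD arrays, and that of the fibroblast list between 10.98 and 10.99, 11.02 and 11.03, and 10.97 and 10.98. The primitive endoderm list lay between 7.60 and 7.67 in the controls, 7.62 and 7.64 in the GCSF arrays and 7.66 and 7.67 in the LIF/PD arrays, and the mesoderm list between 6.42 and 6.52, 6.36 and 6.41, and 6.37 and 6.45. The treated arrays were above both controls in the trophoblast list, at 7.47 to 7.50 in the controls, 7.60 to 7.65 in the GCSF arrays and 7.59 to 7.61 in the LIF/PD arrays, and in the neuroectoderm list, at 7.82 to 7.88, 7.94 in both GCSF arrays, and 7.98 to 8.00. For GCSF against control 2 of the 8 ESC markers and 1 marker each of the fibroblast, trophoblast and neuroectoderm lists passed the test described below. For LIF/PD against control 0 of any list passed, and for LIF/PD against GCSF 2 ESC markers did. Counting either direction, 1.17%, 0.0650% and 0.846% of all tested features passed, in that order. The part of the shifts of these marker lists in the results was not tested.

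Egr1, the best known ERK-responsive gene of the set, fell in the arrays labelled GCSF and was the only one of the 8 tested members to pass the test in any comparison. Its log2 intensity was 8.49 and 8.38 in the controls, 6.98 and 6.90 in the GCSF arrays and 8.34 and 8.17 in the LIF/PD arrays. The GCSF arrays lay far below all the others, and the LIF/PD arrays lay just below the controls without overlap. Against control, Egr1 fell 2.81-fold in the arrays labelled GCSF, a log2 difference of -1.49 ± 0.08 (SE of the limma fit, n = 2 arrays per group; 95% interval -1.67 to -1.32, adjusted p = 5.13e-05). Among the 16912 tested features only those of Dusp6 and Spry4 had a lower difference. In the arrays labelled LIF/PD the log2 difference of Egr1 from control was -0.18 ± 0.08 (95% interval -0.36 to -0.0038, adjusted p = 0.752), which did not pass. Set directly against each other, Egr1 was 2.48-fold higher in the LIF/PD than in the GCSF arrays (log2 difference 1.31 ± 0.08, 95% interval 1.14 to 1.49, adjusted p = 0.000158), and again only the same 2 features, of Dusp6 and Spry4, had a larger difference in that direction. In RNA of whole cultures, less RNA per cell and fewer cells that express a gene cannot be told apart.

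Of the 8 tested members 1 passed for GCSF against control, as lower, while 1.17% of all tested features passed, 0.367% as lower and 0.804% as higher. For LIF/PD against control 0 of 8 passed by limma, 1 of them, Egr1, at an unadjusted p under 0.05 (6.59% of all features), while 0.0650% of all features passed, 0.0591% as higher and 0.00591% as lower. For LIF/PD against GCSF 1 of 8 passed, as higher, while 0.846% of all features passed, 0.402% as higher and 0.443% as lower. At an unadjusted limma p under 0.05 there were 2 for GCSF against control, Egr1 and Nr4a1 (12.1% of all features). For LIF/PD against GCSF there were 2 as well, Egr1 and Ier2 (11.8%). Few features of any kind passed, so the lack of a call in the other 7 members does not set them apart from most features. The median log2 difference over all 9 members was -0.09 for GCSF against control, 0.02 for LIF/PD against control and 0.06 for LIF/PD against GCSF, beside 0.01, 0.01 and 0.00 over all tested features.

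**Figure D1:**
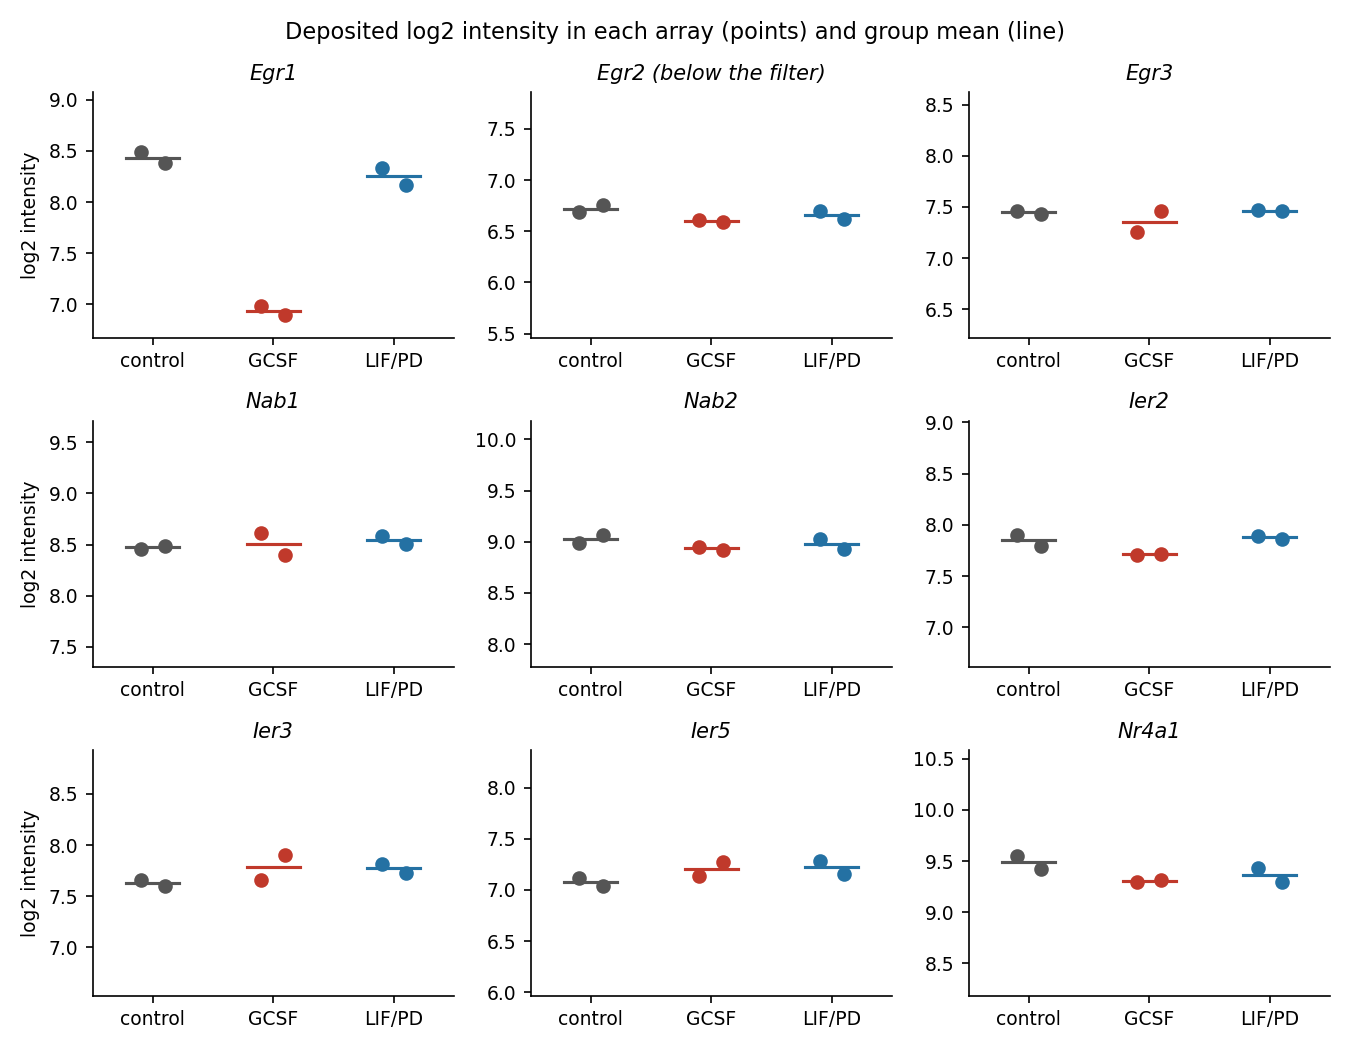
Log2 intensity (vertical axis, each panel spanning the same range of log2 units) of the 9 genes in the 2 arrays of each group (points), with group means (lines). Egr1 at 6.98 and 6.90 in the arrays labelled GCSF stands apart from its other 4 values, while the points of each other gene lie close together.

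The other EGR genes did not share the size of that fall. Egr2, a regulator of hindbrain and Schwann cell development, had log2 intensities of 6.69 and 6.75 in the controls, 6.61 and 6.59 in the GCSF arrays and 6.70 and 6.62 in the LIF/PD arrays. The GCSF arrays were the lowest of the 6, by a small margin. With a mean of 6.66 Egr2 lay just below the filter and was not tested with the others. In a fit with no filter its difference from control was -0.12 ± 0.08 for GCSF (95% interval -0.29 to 0.06, adjusted p = 0.713 with limma) and -0.06 ± 0.08 for LIF/PD (adjusted p = 0.942). Egr3, which acts in muscle spindles and lymphocytes, had 7.46 and 7.43 in the controls, 7.25 and 7.46 in the GCSF arrays and 7.47 and 7.46 in the LIF/PD arrays. One GCSF array was low and the other matched the controls, so the groups overlapped. The difference was -0.09 ± 0.08 (95% interval -0.27 to 0.10, adjusted p = 0.726) for GCSF and 0.02 ± 0.08 (adjusted p = 0.983) for LIF/PD. The 95% intervals of Egr1 and Egr3 for GCSF against control do not touch. Egr4, the fourth gene of the family, differed by -0.10 ± 0.11 for GCSF and -0.11 ± 0.11 for LIF/PD, and passed in neither. The control means were 6.72 for Egr2, 7.45 for Egr3 and 7.06 for Egr4, against 8.43 for Egr1. All of these but that of Egr1 lie nearer to the filter at 6.70, and whether low intensity limited their falls was not tested.

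The promoter of Egr2 is shown because it matches letters of sites through which SRF is known to act on immediate early genes. It also matches the short form of the site of the cAMP response element binding protein CREB. RefSeq sequence windows, from 250 bases before to 50 bases after a start site, were at hand for 6 of the 9 members, Egr2, Nab1, Nab2, Ier3, Ier5 and Nr4a1, and not for Egr1, Egr3 and Ier2. They were searched on both strands for the CArG box, the core of a serum response element, for the EGR site GCGTGGGCG, for the cAMP response element TGACGTCA and its shorter form TGACG, which the longer one contains, for the STAT site TTCNNNGAA and for the ETS core CCGGAA. Of 32851 windows of that length, 1.63% hold a CArG box, 0.612% GCGTGGGCG, 1.79% TGACGTCA, 20.8% TGACG, 8.30% TTCNNNGAA and 14.9% CCGGAA. Of the 5 start sites listed for Egr2, a pair are given here, on the plus strand of build GRCm38.p6, 5′ to 3′ with matches in capitals, at chr10:67537316-67537615 and chr10:67537620-67537919.
Egr2, upstream start: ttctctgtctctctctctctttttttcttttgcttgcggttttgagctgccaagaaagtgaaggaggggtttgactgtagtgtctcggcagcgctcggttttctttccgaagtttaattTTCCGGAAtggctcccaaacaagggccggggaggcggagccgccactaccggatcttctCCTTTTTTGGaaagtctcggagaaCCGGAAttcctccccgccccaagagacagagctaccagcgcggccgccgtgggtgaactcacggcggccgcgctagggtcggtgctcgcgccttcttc
Egr2, downstream start: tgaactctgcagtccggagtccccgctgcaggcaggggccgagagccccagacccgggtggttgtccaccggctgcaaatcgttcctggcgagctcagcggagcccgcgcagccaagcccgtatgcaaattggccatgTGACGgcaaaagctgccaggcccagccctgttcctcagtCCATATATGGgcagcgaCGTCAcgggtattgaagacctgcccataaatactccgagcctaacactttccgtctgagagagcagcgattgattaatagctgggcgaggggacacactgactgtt
The first window holds 1 CArG box, beginning 72 bases before the start, and 3 CCGGAA matches, a pair of which overlap on opposite strands. The second holds another CArG box, beginning 73 bases before the start, and 2 TGACG matches. No window of Egr2 holds the full TGACGTCA. The matches stand at a gene whose transcript lay just below the filter on low values, and a match describes the letters, not a bound site.

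The EGR corepressor genes Nab1 and Nab2 did not pass in any comparison. Nab1 had log2 intensities of 8.46 and 8.48 in the controls, 8.61 and 8.40 in the GCSF arrays and 8.58 and 8.50 in the LIF/PD arrays. The 2 GCSF arrays lay on either side of the controls, and the LIF/PD arrays were both slightly above them. The difference from control was 0.03 ± 0.07 for GCSF (95% interval -0.14 to 0.20, adjusted p = 0.911) and 0.07 ± 0.07 for LIF/PD (adjusted p = 0.908). Nab2, which EGR proteins are known to induce, had 8.99 and 9.07 in the controls, 8.95 and 8.92 in the GCSF arrays and 9.02 and 8.93 in the LIF/PD arrays. Its GCSF arrays lay just below both controls, and its LIF/PD arrays overlapped them. The difference was -0.09 ± 0.05 for GCSF (95% interval -0.22 to 0.03, adjusted p = 0.561) and -0.05 ± 0.05 for LIF/PD (adjusted p = 0.902). The window of Nab1, shown because it alone of the members' windows matches the EGR site, lies on the minus strand at chr1:52500399-52500698 of GRCm38.p6 and is written 5′ to 3′ along the gene.
Nab1: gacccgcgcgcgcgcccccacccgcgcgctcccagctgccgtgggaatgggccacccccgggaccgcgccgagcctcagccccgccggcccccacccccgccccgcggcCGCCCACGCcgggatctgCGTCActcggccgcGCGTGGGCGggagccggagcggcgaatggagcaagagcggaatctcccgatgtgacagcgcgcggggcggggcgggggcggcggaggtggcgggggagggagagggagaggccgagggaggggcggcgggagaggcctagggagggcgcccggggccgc
It holds GCGTGGGCG in both orientations, beginning 141 and 109 bases before the start, and 1 TGACG match between them. The matches stand beside a transcript that did not pass. They describe the letters, and whether EGR proteins act there was not tested. The window of Nab2 held none of the letters searched, and from that nothing follows about any factor.

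The IER genes encode short-lived proteins with roles in growth and survival. Ier2, a nuclear protein gene induced by serum, had log2 intensities of 7.91 and 7.80 in the controls, 7.71 and 7.72 in the GCSF arrays and 7.89 and 7.87 in the LIF/PD arrays. The GCSF arrays were the 2 lowest, while the LIF/PD arrays lay within the range of the controls. The difference was -0.14 ± 0.06 for GCSF against control (95% interval -0.29 to 0.0088, adjusted p = 0.446), 0.03 ± 0.06 for LIF/PD against control (adjusted p = 0.963) and 0.17 ± 0.06 for LIF/PD against GCSF (95% interval 0.02 to 0.31, adjusted p = 0.361), and none passed. Ier3, which encodes a regulator of apoptosis also known as IEX-1, had 7.66 and 7.60 in the controls, 7.66 and 7.91 in the GCSF arrays and 7.82 and 7.73 in the LIF/PD arrays. All 4 treated arrays lay above both controls, one of the GCSF arrays only just. The difference was 0.15 ± 0.09 for GCSF (95% interval -0.05 to 0.36, adjusted p = 0.548) and 0.14 ± 0.09 for LIF/PD (95% interval -0.06 to 0.35, adjusted p = 0.816). Ier5 had 7.12 and 7.03 in the controls, 7.14 and 7.28 in the GCSF arrays and 7.28 and 7.16 in the LIF/PD arrays. Its treated arrays too were all above both controls, by 0.13 ± 0.08 on average for GCSF (95% interval -0.06 to 0.32, adjusted p = 0.586) and 0.14 ± 0.08 for LIF/PD (95% interval -0.04 to 0.33, adjusted p = 0.805). Both comparisons use the same 2 controls. These GCSF differences moved with the GCSF array used: without GCSF replicate 2 that of Ier3 was 0.03 and that of Ier5 0.06 (adjusted p = 0.903 and 0.815), and without GCSF replicate 1 they were 0.28 and 0.20 (adjusted p = 0.298 and 0.565). Its relative Ier5l differed by 0.13 ± 0.07 for GCSF and -0.04 ± 0.07 for LIF/PD, and did not pass.

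GCSF replicate 1 differed from the other arrays in its control probes, and some differences of the members changed when the control-probe median entered the fit. The median log2 intensity of the array's block of 6573 control features was 6.84 in that array and between 6.58 and 6.71 in the other 5. LIF/PD replicate 1 was the lowest, at 6.58, and both GCSF arrays lay above both LIF/PD arrays. The effect of this median therefore cannot be fully told apart from that of the group. With this median as a covariate the difference for GCSF against control was 0.29 ± 0.08 for Ier3 (adjusted p = 0.344) and 0.23 ± 0.09 for Ier5 (adjusted p = 0.518), larger than without it but still not past the threshold, and that of Egr1 was -1.46 ± 0.10 (adjusted p = 0.00118). For LIF/PD against GCSF the covariate took Ier3 from -0.01 to -0.22 and Ier5 from 0.01 to -0.15. Nr4a1 went from 0.06 to -0.05 and Egr3 from 0.11 to -0.03 in that comparison. None of these passed, while Egr1 still did at 1.26 ± 0.12 (adjusted p = 0.0135 with limma).

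Nr4a1, which encodes the nuclear receptor NUR77 and is induced by both serum and cAMP signals, had the largest difference for GCSF after Egr1 among the members and did not pass. Its log2 intensity was 9.55 and 9.43 in the controls, 9.29 and 9.32 in the GCSF arrays and 9.43 and 9.29 in the LIF/PD arrays. Both GCSF arrays lay below both controls, and the LIF/PD arrays overlapped the controls and the GCSF arrays. The difference was -0.18 ± 0.06 for GCSF (95% interval -0.32 to -0.04, adjusted p = 0.277), -0.12 ± 0.06 for LIF/PD (adjusted p = 0.782) and 0.06 ± 0.06 between the treatments (adjusted p = 0.765). Its relatives Nr4a2 (0.06 ± 0.09 for GCSF and 0.15 ± 0.09 for LIF/PD) and Nr4a3, which lay below the filter (-0.03 ± 0.10 and -0.04 ± 0.10 with no filter), did not pass either. The Nr4a1 window is shown for its repeated TGACG, at chr15:101266596-101266895 on the plus strand of GRCm38.p6.
Nr4a1: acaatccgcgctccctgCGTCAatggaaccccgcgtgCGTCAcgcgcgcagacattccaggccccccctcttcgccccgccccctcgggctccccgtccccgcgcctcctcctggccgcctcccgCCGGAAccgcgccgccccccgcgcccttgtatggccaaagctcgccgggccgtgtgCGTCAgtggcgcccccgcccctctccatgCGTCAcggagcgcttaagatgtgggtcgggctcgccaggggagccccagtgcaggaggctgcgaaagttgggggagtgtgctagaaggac
It holds 4 TGACG matches, all on the opposite strand and so written cgtca in this direction, beginning 233, 213, 69 and 40 bases before the start, and 1 CCGGAA match.

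Among the members, the 7 tested ones that did not pass for GCSF against control had log2 differences from -0.18 to 0.15, and their 95% intervals ran from -0.32 to 0.36, that is from 1.25-fold lower to 1.28-fold higher. The interval of Egr1 lay wholly outside that range. For LIF/PD against control the intervals of all 8 ran from -0.36 to 0.35, or from 1.28-fold lower to 1.27-fold higher. By position alone, 4 of the 8 tested members were lower and 2 higher in both GCSF arrays than in both controls, and Egr2, below the filter, was lower too. Among all tested features 18.2% were separated as lower and 23.7% as higher, so separation of 2 arrays from 2 is common. For LIF/PD against control 1 of 8 was separated as lower (14.4% of all features) and 4 as higher (24.0%), and for LIF/PD against GCSF 3 of 8 as higher (22.4%) and 0 as lower (19.1%).

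**Figure D2:**
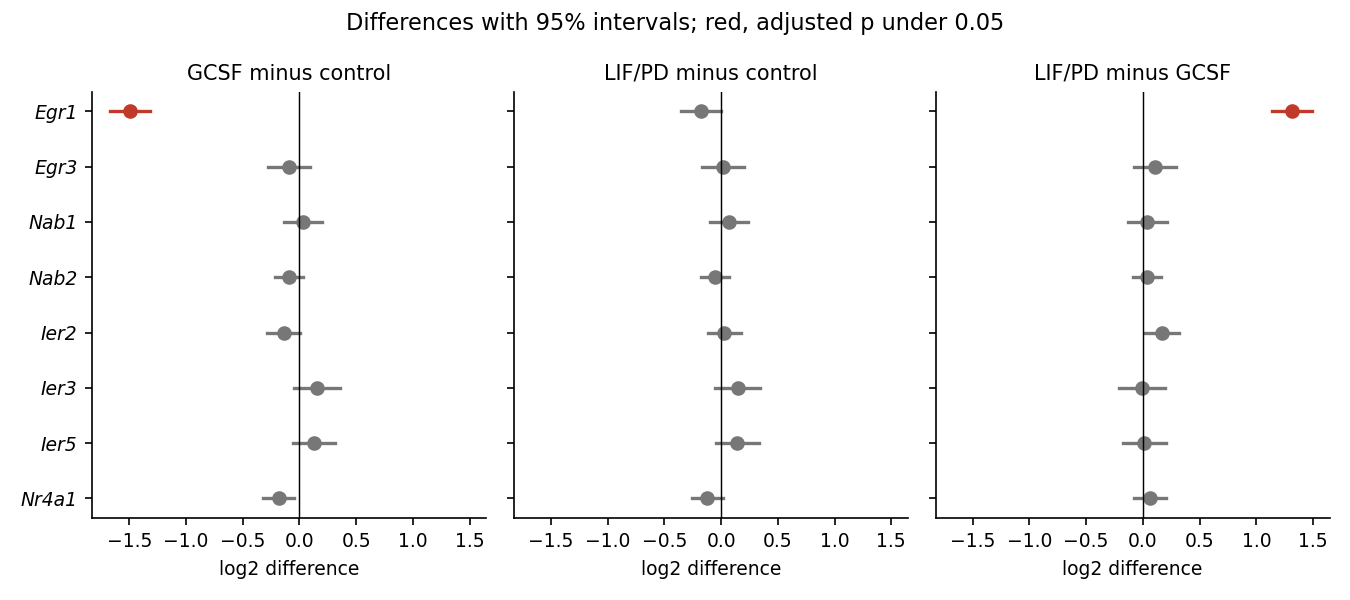
Log2 differences (horizontal axis) of the 8 tested members in the 3 comparisons, with 95% intervals from the limma fit; red marks an adjusted p under 0.05. Egr1 lies at -1.49 for GCSF minus control and at 1.31 for LIF/PD minus GCSF, and every other interval stays between -0.36 and 0.36.

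The genes whose values over the 6 arrays were most like those of Egr1 were found by the Euclidean distance between features, each centred on its own mean, among 14022 tested features of other genes. The nearest was a feature of Rbpj, the DNA-binding effector of Notch signalling, at 0.32 log2 units, followed by Dusp6 at 0.34 and Spry4 at 0.60, against a median of 1.65 over all those features. The distance is not scaled, so any feature that changes little lies far from Egr1. The median therefore reflects the size of the change of Egr1 and says little about likeness. The Rbpj feature had 9.61 and 9.75 in the controls, 8.38 and 8.42 in the GCSF arrays and 9.58 and 9.60 in the LIF/PD arrays. The other feature of Rbpj differed by -0.05 ± 0.03 for GCSF, so the likeness does not hold for the whole gene. Dusp6 fell by 1.56 ± 0.04 and Spry4 fell by 1.83 ± 0.06 (adjusted p = 5.66e-07 and 4.03e-06), and in the LIF/PD arrays they differed from control by 0.03 and 0.05, neither past the threshold.

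**Figure D3:**
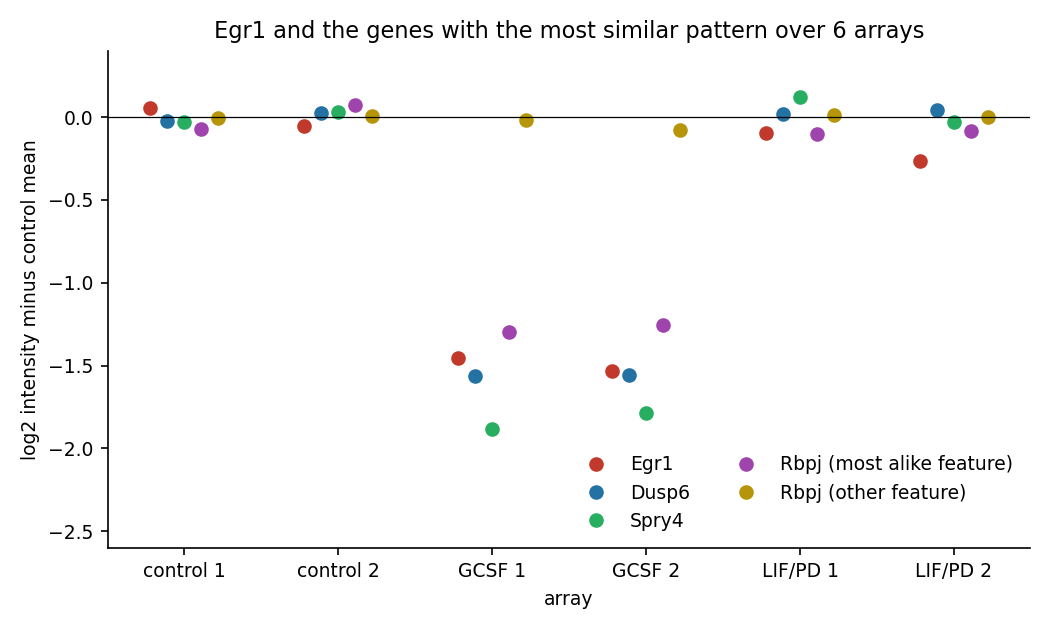
Log2 intensity minus the mean of the 2 controls (vertical axis) in each of the 6 arrays (horizontal axis) for Egr1, Dusp6, Spry4 and both features of Rbpj. In the 2 arrays labelled GCSF all but the other Rbpj feature lie more than 1 log2 unit below control, and in the arrays labelled LIF/PD all lie near it.

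Around the 9 members, other immediate early genes moved in both directions in the arrays labelled GCSF. Of 41 listed genes 39 were tested, of which 13 rose, 6 fell and 20 did not pass, beside 0.804% of all tested features that rose and 0.367% that fell. The list was chosen with earlier results of these data known and includes the check gene Dusp6. The counts therefore describe the list, and no set was tested. An unadjusted p under 0.05 was found for 26 of the 39, and for 12.1% of all tested features. The median log2 difference of the list was 0.07, beside 0.01 over all tested features. Those that fell besides Dusp6 were Myc, the growth-promoting transcription factor gene (-0.77 ± 0.04), the ERK phosphatase gene Dusp4 (-0.55 ± 0.06), Fosl1 of the AP-1 family (-0.37 ± 0.07), the kinase gene Plk3 (-0.37 ± 0.04) and Errfi1, an inhibitor of the EGF receptor (-0.28 ± 0.04). The small GTPase gene Rhob rose most, by 1.28 ± 0.07, and the other 12 that rose did so by 0.39 to 0.73, namely Jun, Atf3, Btg2, Ccn1, Junb, Dusp1, Fosl2, Gadd45b, Klf6, Plk2, Sgk1 and Zfp36. Among them Gadd45b is a stress sensor gene (0.50 ± 0.06), Plk2 a kinase gene (0.47 ± 0.05) and Sgk1 a serum-induced kinase gene (0.44 ± 0.05). Fos, a classic ERK and SRF target, did not pass at -0.29 ± 0.09 (adjusted p = 0.260), though both its GCSF arrays lay below both controls. Its mean of 6.71 in the GCSF arrays lay just above the filter at 6.70. Whether low intensity limited its fall was not tested. Of the 19 calls 13 held whichever array was left out, and those of Fosl1, Fosl2, Zfp36, Plk3, Gadd45b and Errfi1 did not. Without control replicate 1 there were 13 calls.

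In the arrays labelled LIF/PD 2 of 39 rose against control, the AP-1 gene Junb (0.58 ± 0.07, adjusted p = 0.0400) and the phosphatase gene Dusp1 (0.40 ± 0.03, adjusted p = 0.00791), and 0 fell, beside 0.0591% and 0.00591% of all tested features. By limma 10 had an unadjusted p under 0.05, as did 6.59% of all tested features, and the list median was 0.03. Neither call held without either control or without either LIF/PD array, when 0 were left, and without either GCSF array only 1 was. Between the treatments 5 were higher in the arrays labelled LIF/PD than in those labelled GCSF, namely Dusp6, Myc, Dusp4, Plk3 and Errfi1 (0.402% of all tested features were), and 7 were lower, Rhob, Btg2, Jun, Ccn1, Atf3, Klf6 and Gadd45b (0.443%). This comparison and that of GCSF with control share the GCSF arrays. An unadjusted p under 0.05 was found for 25 of the 39 and for 11.8% of all tested features. The list median was -0.05. These 12 calls became 7 without GCSF replicate 1, 5 and 7 without LIF/PD replicates 1 and 2, and 5 with the control block median as covariate. The calls of Myc, Btg2, Dusp6, Ccn1 and Rhob held with any array left out. Srf and its cofactor, ternary complex factor and ERK kinase genes showed no change of their own transcripts that passed: of 17 listed, 12 were tested and 0 passed in any of the 3 comparisons by limma, with 2 at an unadjusted p under 0.05 in each, against the shares of all tested features given above. Their medians were 0.04 and 0.03 for GCSF and LIF/PD against control and -0.02 between the treatments.

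**Figure D4:**
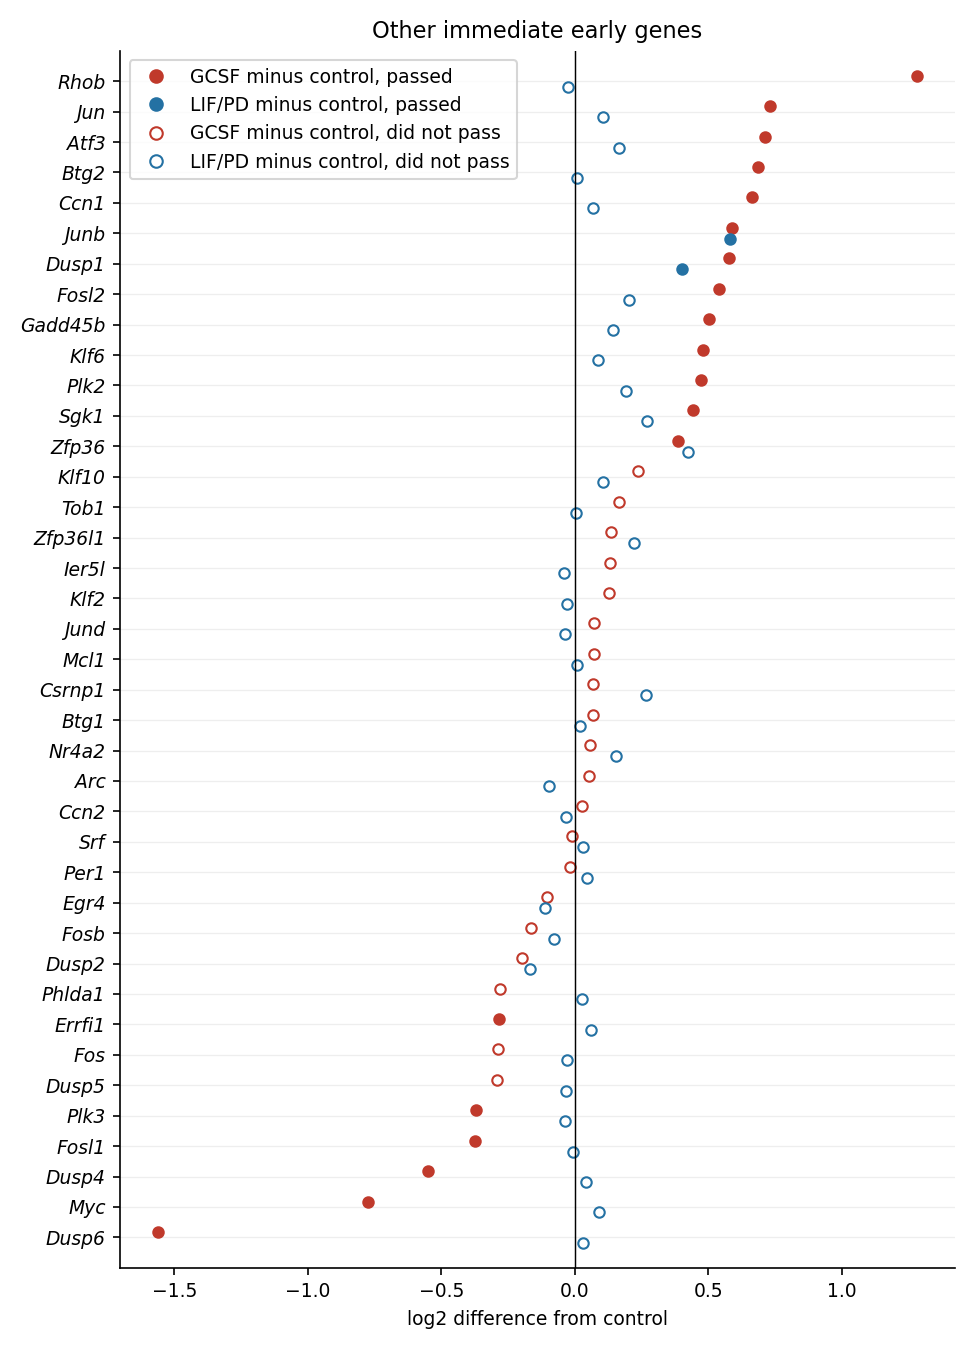
Log2 difference from control (horizontal axis) of 39 other immediate early genes (rows, ordered by the GCSF value) for GCSF (red) and LIF/PD (blue); filled points passed at an adjusted p under 0.05. The GCSF values run from -1.56 for Dusp6 to 1.28 for Rhob, while the LIF/PD values are filled only for Junb and Dusp1.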

How the data were processed

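Total RNA was isolated with TRIzol, labelled with biotin and hybridised at a core facility, per the labels' protocols. The values in the deposited table (34760 features, 6 arrays) run from 2.29 to 14.50 and were taken as log2 intensity on that basis. The log base and the authors' background correction, summarization and normalization are not given in the sources used here, and the deposited log2 values were used as they are. Genes were named from the platform annotation, with symbols updated by Entrez identifier. The 6573 features numbered below the first annotated one were treated as the array's control block. Of the other 28187, the 16912 whose mean reached the 40th percentile (6.70) entered the tests.

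A limma model (version 3.58.1, R 4.3.3) with a mean for each group was fitted to the 6 arrays, with an intensity trend in the variances and 8.40 degrees of freedom in total, 3 of them residual. Tests were two-sided, p-values were Benjamini-Hochberg adjusted over all tested features, and a feature passed at an adjusted p under 0.05. The fit was run on simulated data with independent normal noise, as a check of the code and not of how well small differences are found. All 9 members were named whatever their values, with called members of the fixed lists, 4 close relatives, 3 check genes and the 3 features nearest in pattern to a called member. List genes were taken at their brightest tested feature. The printed promoters were picked after their matches were seen. The members, lists and alternatives were chosen with earlier results of these data known. Separate cultures per array are not stated in the labels, and p-values reflect the spread among these samples alone, possibly technical. The number of arrays limits the precision. Pearson correlations were 0.997 to 0.998 within and 0.995 to 0.998 between groups, and in any pair of arrays 1 to 7 tested features were equal as deposited, compared with no tolerance.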

Additional observations from a re-analysis of the deposited data

How the results depend on the processing

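Across 15 alternatives, all 345 recomputed member differences stayed on their side of the threshold, and Egr1 ranged from -1.54 to -1.44 for GCSF against control and from 1.23 to 1.40 for LIF/PD against GCSF. With a filter at the 60th percentile, 0 members passed in either comparison, because Egr1 itself lies below that filter. With each array left out in turn, member calls stayed at 1, 0 and 1. Some differences that did not pass changed sign: for GCSF against control that of Egr3 ran from -0.19 to 0.02 and that of Nab1 from -0.07 to 0.14. The directions of Egr3 and Nab1 are thus not settled. For the same comparison Nab2, Ier2 and Nr4a1 stayed negative and Ier3 and Ier5 positive, without passing. Their sizes varied, that of Ier3 from 0.03 to 0.29. For the other immediate early genes, leaving out an array gave 13 to 17 calls for GCSF against control, 0 to 1 for LIF/PD against control and 5 to 12 for LIF/PD against GCSF. For LIF/PD against control the 2 calls became 1 with only the compared arrays, no filter, the stricter filter, quantile normalization, median centring or the control block covariate, and 0 with no intensity trend, and for LIF/PD against GCSF the 12 became 5 with the covariate. The cause was not tested, and fewer arrays also cost power. With the replicate number as a block, calls of members stayed at 1, 0 and 1 and those of the other immediate early genes were 18, 1 and 12. Deviations of same-numbered arrays correlated at 0.01, 0.08 and 0.10, so the numbers were not taken as pairs.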
